A study of Mus musculus with 44 samples.

Results

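The small leucine-rich proteoglycans (SLRPs) are secreted matrix proteins that coat collagen fibrils. The 10 genes described here are Dcn, Bgn, Aspn, Lum, Fmod, Kera, Omd, Prelp, Ogn and Podn, taken by their symbols from a table of read counts of 55486 mouse genes. Each symbol matched 1 gene, and all 10 passed the filter on low counts. The mRNA came from fibroblasts sorted out of the mammary glands of female En1-Cre;mTmG recipients, in which GFP marks cells of the En1 lineage. Mammary tissue of control, WB1P or WB1P-Myc donors was transplanted into these recipients, whose fat pads were not cleared and so kept their own epithelium. WB1P stands for WapCre;Brca1F/F;Trp53F/F, with Cre driven by a milk protein promoter in mammary epithelium, and WB1P-Myc carries Col1a1invCAG-Myc-IRES-Luc as well. Control donors, called wildtype in the labels, were WapCre-negative Cdh1F/F;PtenF/F mice by the study's text, and control glands were age-matched. Fibroblasts (EpCAM-/CD49f-/CD31-/CD45- cells) were called normal fibroblasts (NFs) in the 3 control mice and cancer-associated fibroblasts (CAFs) in the 5 mice with WB1P and the 5 mice with WB1P-Myc tumors. Each control label holds a pair of numbers and was counted as 1 mouse, and whether animals were pooled under it is not stated. WB1P-Myc mouse 4 and mouse 5, as numbered here, carry the mark 8x8 in their labels. The series describes its tumors as end-stage, whereas the study uses that size in mm for advanced tumors and counts fewer WB1P-Myc mice than the labels do, so the group may mix stages. Libraries of 1 mouse were summed by CD26 on the cell surface, which left 25 sums, and WB1P mouse 1 has no CD26+ library. Of these sums, 19 hold both En1 classes, and the others are 1 library of 1 En1 class. Levels are CPM, a gene's counts scaled to the total counts of its sum.

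SLRPs carry a core of leucine-rich repeats and, in many members, chains of chondroitin, dermatan or keratan sulfate. They bind to the surface of collagen fibrils and limit how the fibrils thicken and fuse, and mice that lack single members have uneven fibrils in skin, tendon or cornea. Several members also bind growth factors of the TGF-beta family. Dcn, Bgn and Aspn form class I, Lum, Fmod, Kera, Omd and Prelp class II, Ogn belongs to class III and Podn to class V.

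Between 5790599 and 15240328 counts were obtained for each of the 44 libraries, and the sums held up to 29498005 counts. Dpp4, which encodes CD26, was higher in CD26+ sums by 6.75 ± 0.83 (SE) on the log2 scale in control, 6.36 ± 0.64 in WB1P and 5.74 ± 0.62 in WB1P-Myc mice. Fibroblast markers summed to between 28474 and 80893 CPM in all 25 sums. Most of this was Col1a1, Col1a2 and Col3a1, so the sum does not show that each marker was even across groups. Of the 8 markers, 3 were called higher and 1 lower in WB1P CD26- CAFs, and 1 higher and 1 lower in WB1P-Myc. Pdgfra was at 1517 CPM or more in control CD26- sums and at 993 CPM or less in all CD26- CAF sums. Its relation to the SLRP levels was not tested. Among lists of markers of other cell types, those of pericytes, tenocytes, and chondrocytes and osteoblasts each had 3 or more genes called higher and none lower in CD26- CAFs of both models, and their values stand beside the results they moved with. Other lists fell. Of 6 skeletal muscle markers, 2 were called lower in WB1P and 6 in WB1P-Myc CD26- CAFs. They summed to 63.2 to 316 CPM in control CD26- sums, with control mouse 2 highest, and to at most 74.7 and 11.9 CPM in these CAFs. Of 6 endothelial markers, 4 were called lower and 0 higher in CD26+ CAFs of each model. In CD26- CAFs, 4 were lower in WB1P and 3 in WB1P-Myc, with 1 higher in each. The part of these lists in the SLRP levels was not tested. In sorted bulk samples, fewer cells with a transcript and less transcript per cell cannot be told apart.

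In NFs the SLRP counts were mostly Dcn and Lum, and in CAFs Bgn held the largest share of any of the 10 genes, over 50% in every CD26- sum and in 1 of 9 CD26+ sums. The 10 genes together held 1.10% ± 0.20 (SD, n = 3 mice) of all counts in control CD26- NFs and 0.832% ± 0.019 (n = 3) in CD26+ NFs. They held 1.04% ± 0.07 (n = 5) in WB1P and 1.09% ± 0.18 (n = 5) in WB1P-Myc CD26- CAFs, and 1.21% ± 0.13 (n = 4) and 1.21% ± 0.06 (n = 5) in the CD26+ CAFs. Of these SLRP counts, Dcn and Lum took 66.2% to 69.4% in the mice of control CD26- NFs and 65.5% to 68.0% in CD26+ NFs. The same pair took 8.30% to 21.9% in WB1P CD26- CAFs, 11.1% to 32.7% in WB1P-Myc CD26- CAFs and 28.1% to 36.7% in CD26+ CAFs of both models. Bgn took 8.26% to 25.7% of the SLRP counts in NFs, 55.8% to 73.9% in CD26- CAFs and 39.1% to 52.4% in CD26+ CAFs. No CAF sum overlapped any NF sum in either share.

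**Figure D1:**
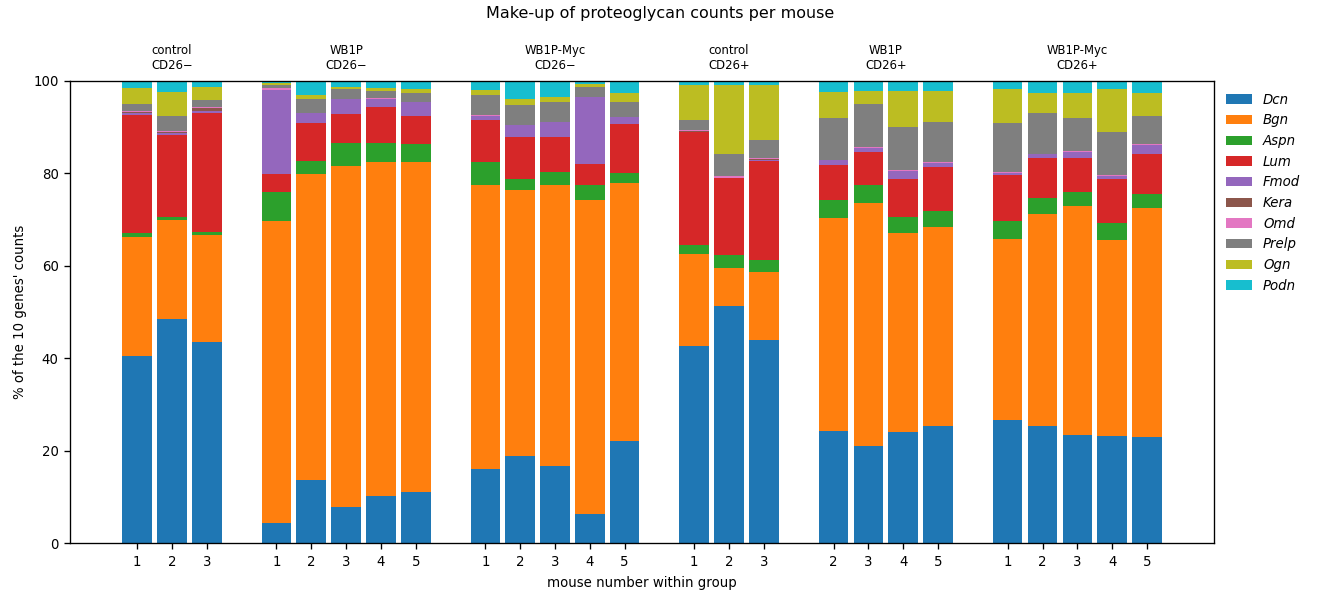
Share (%) of the counts of the 10 SLRP genes that each gene held, as 1 stacked bar per mouse and CD26 class. Dcn and Lum filled 65.5% or more of every control bar, and Bgn 39.1% or more of every tumor bar.

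Levels of different genes were compared per kilobase of exon (CPM per kb), with all annotated exons of a gene merged. This length was 5.838 kb for Dcn, 6.099 kb for Bgn and 2.448 kb for Lum, and may exceed that of the mRNA present. The order depends on it. In plain CPM, Dcn stood above Lum in control CD26- NFs (means 4921 and 2488) and in control CD26+ NFs (3828 and 1734). In control CD26- NFs the order was Lum (mean 1016 CPM per kb), Dcn (843), Bgn (419), Ogn (173), Prelp (65.4), Podn (47.7), Aspn (29.6), Kera (18.1), Fmod (13.6) and Omd (7.85). Lum and Dcn overlapped between mice in this order. In control CD26+ NFs, Lum (708) and Dcn (656) were again first and overlapped, and were followed by Ogn (371), Bgn (193), Aspn (84.6) and Prelp (83.7). Fmod stood last there with 1.82 CPM per kb. In all 4 CAF groups Bgn was first, with means between 900.2 and 1185 CPM per kb, and its range lay above that of the gene after it. In WB1P CD26- CAFs, Lum (275), Aspn (191), Fmod (178) and Dcn (168) followed Bgn, and each overlapped the next. Fmod was at 579 CPM per kb in mouse 1 and at 58.0 to 95.9 in the others, so its mean above that of Dcn rests on that mouse. In plain CPM, Dcn (mean 982) stood above Lum (674), Fmod (590) and Aspn (450) there.

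CD26- CAFs were compared with CD26- NFs to see how the SLRPs differ between tumor and normal fibroblasts of this class. Against the 3 control mice, 3 of the 10 genes were higher and 4 lower in WB1P, and 3 were higher and 5 lower in WB1P-Myc (edgeR quasi-likelihood test, Benjamini-Hochberg adjusted over all genes tested). Among the 16601 genes tested, 17.6% were called higher and 17.8% lower in WB1P, and 19.1% higher and 17.5% lower in WB1P-Myc. Bgn, Aspn and Fmod rose in both models, and Dcn, Lum, Kera and Ogn fell in both. The median log2 fold change of the 10 genes was -0.37 in WB1P and -0.51 in WB1P-Myc, beside 0.00 and 0.02 over all genes. The 2 comparisons share the control mice. In this fit the spread between sums was pooled over all 6 groups, tumor and control, and the CD26 classes of a mouse counted as separate. Where ranges of groups are said not to overlap, the share of all genes that do so was not counted.

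Dcn encodes decorin, a class I proteoglycan that binds collagen and TGF-beta. It stood at 4032, 6457 and 4274 CPM in the 3 control mice, at 458, 1560, 763, 1045 and 1084 CPM in WB1P mice 1 to 5, and at 1260, 2232, 1969, 711 and 2680 CPM in WB1P-Myc mice 1 to 5. Every CD26- CAF sum was below every control sum. The log2 fold change was -2.17 ± 0.33 (SE; adjusted p = 3.2e-05) in WB1P and -1.49 ± 0.33 (adjusted p = 0.0015) in WB1P-Myc, or 4.51-fold and 2.81-fold lower. Bgn, biglycan, is the closest relative of decorin. Its levels were 2554, 2853 and 2264 CPM in control, 6880, 7572, 7257, 7395 and 7024 CPM in WB1P, and 4785, 6806, 7132, 7575 and 6788 CPM in WB1P-Myc mice. The tumor mice lay above the control mice without overlap, with a log2 fold change of 1.63 ± 0.25 (adjusted p = 3.1e-05) in WB1P and 1.36 ± 0.24 (adjusted p = 0.00022) in WB1P-Myc. The log2 ratio of Bgn to Dcn CPM within a sum averaged -0.92 ± 0.26 (SD, n = 3) in control, 2.99 ± 0.62 (n = 5) in WB1P and 2.03 ± 0.81 (n = 5) in WB1P-Myc CD26- fibroblasts.

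Aspn, asporin, binds collagen, as decorin does, but lacks its glycosaminoglycan chain. It was at 82.1, 78.0 and 48.7 CPM in control CD26- NFs. It reached 672, 303, 478, 426 and 373 CPM in WB1P and 398, 282, 321, 346 and 251 CPM in WB1P-Myc mice. The lowest tumor value was above the highest control value, and Aspn had the smallest adjusted p of the 10 genes, with a log2 fold change of 2.81 ± 0.24 (adjusted p = 4.3e-08) in WB1P and 2.17 ± 0.24 (adjusted p = 8.5e-07) in WB1P-Myc. Ogn, osteoglycin or mimecan, is a class III member. It fell from 347, 707 and 275 CPM in control to 37.1, 115, 34.2, 78.6 and 79.8 CPM in WB1P and 84.1, 161, 135, 62.0 and 234 CPM in WB1P-Myc mice. The ranges did not overlap, and the log2 fold change was -2.53 ± 0.43 (adjusted p = 0.00012) and -1.73 ± 0.43 (adjusted p = 0.0037). Without control mouse 2, whose 707 CPM was the highest, the WB1P-Myc value was -1.21 (adjusted p = 0.058).

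Of class II, Lum and Kera fell and Fmod rose in CD26- CAFs. Lum, lumican, a keratan sulfate proteoglycan, was at 2558, 2375 and 2532 CPM in control, at 417, 946, 620, 783 and 607 CPM in WB1P and at 703, 1075, 876, 528 and 1292 CPM in WB1P-Myc mice. All tumor mice were below all control mice, with log2 fold changes of -1.74 ± 0.25 (adjusted p = 1.9e-05) and -1.49 ± 0.25 (adjusted p = 0.00012). Kera, keratocan, is best known from the cornea and was low here. Its 25.4, 32.1 and 66.5 CPM in control compared with 1.01 to 5.11 CPM in WB1P and 0.584 to 3.15 CPM in WB1P-Myc mice, which did not overlap. The log2 fold changes were -3.71 ± 0.75 (adjusted p = 0.00061) and -4.29 ± 0.77 (adjusted p = 0.00023).

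Fmod, fibromodulin, which binds collagen at the site also used by lumican and is abundant in tendon and cartilage, was at 38.8, 55.5 and 40.5 CPM in control CD26- NFs. WB1P mice 1 to 5 had 1913, 249, 317, 192 and 279 CPM, and WB1P-Myc mice 1 to 5 had 77.6, 311, 387, 1610 and 181 CPM. All CAF values were above all control values, but 1 mouse in each model stood far above its group. WB1P mouse 1 has an En1+ library only, and in WB1P-Myc mouse 4, marked 8x8, the En1+ library (1739 CPM) and the En1- library (1467 CPM) were both high. The log2 fold change was 3.83 ± 0.98 (adjusted p = 0.0041) in WB1P and 2.67 (adjusted p = 0.013) without mouse 1. It was 3.56 ± 0.96 (adjusted p = 0.0065) in WB1P-Myc and 2.37 (adjusted p = 0.026) without mouse 4. Of 4 tenocyte markers (Scx, Tnmd, Mkx and Thbs4), 3 were called higher in CD26- CAFs of both models, and they summed to 17.5 to 23.3 CPM in control, 127 to 1250 CPM in WB1P and 38.2 to 933 CPM in WB1P-Myc sums. The lowest of these tumor values were those of WB1P mouse 1 and WB1P-Myc mouse 4. Of 6 chondrocyte and osteoblast markers, 5 were called higher in WB1P and 3 in WB1P-Myc, and they summed to 82.1 to 176 CPM in control, 141 to 348 CPM in WB1P, with mouse 1 highest, and 128 to 204 CPM in WB1P-Myc, with mouse 4 at 133 CPM. Their part in the Fmod levels was not tested.

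Omd, osteomodulin, a keratan sulfate proteoglycan first known from bone, was at 17.5, 19.6 and 15.9 CPM in control. It was at 32.8 CPM in WB1P mouse 1 but between 3.30 and 7.95 CPM in the other WB1P mice and between 2.56 and 6.91 CPM in WB1P-Myc mice. It fell in WB1P-Myc (log2 fold change -2.04 ± 0.52, adjusted p = 0.0044). In WB1P the value was -0.61 ± 0.52 (adjusted p = 0.37), and -1.60 (adjusted p = 0.0017) without mouse 1. Prelp, a basic SLRP that also binds heparan sulfate, and Podn, podocan, did not pass the test in either model. Prelp had log2 fold changes of -0.13 ± 0.38 in WB1P and 0.73 ± 0.39 in WB1P-Myc (adjusted p = 0.82 and 0.14). Without control mouse 2, which had 414 CPM beside 147 and 148 CPM in the others, the WB1P-Myc value of Prelp was 1.41 (adjusted p = 0.016). Podn had -0.07 ± 0.46 and 0.48 ± 0.47 (adjusted p = 0.92 and 0.44).

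**Figure D2:**
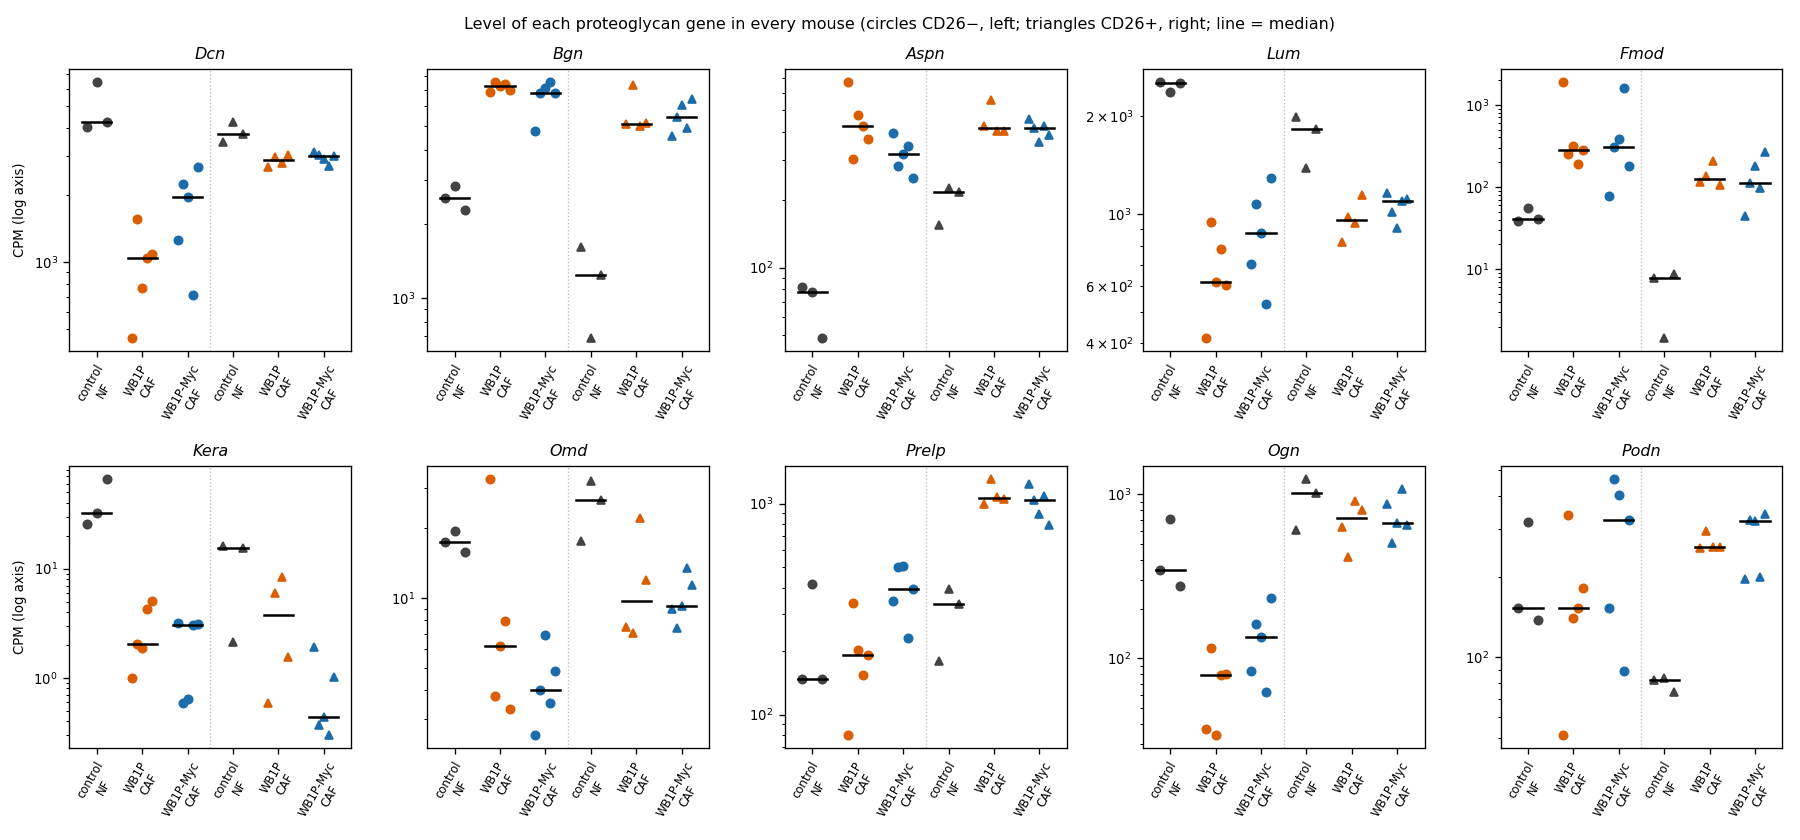
CPM (log axis) of each SLRP gene in every mouse, with CD26- sums as circles on the left and CD26+ sums as triangles on the right of each panel, and the group median as a line. Dcn, Lum, Kera and Ogn were lower, and Bgn, Aspn and Fmod higher, in all CD26- CAF sums than in all CD26- NF sums. The share of all genes that separate in this way was not counted.

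Pericyte markers moved with these differences. All 7 (Rgs5, Cspg4, Mcam, Kcnj8, Abcc9, Notch3 and Higd1b) rose in CD26- CAFs of both models against the control mice. They summed to 210 to 400 CPM in control, 1815 to 5320 CPM in WB1P and 2554 to 10557 CPM in WB1P-Myc CD26- sums, and to 145 to 325 CPM in all CD26+ sums. Within WB1P, mouse 1 had the highest pericyte sum and the lowest Dcn, Lum and Prelp. Ogn was lowest in WB1P mouse 3 (34.2 CPM, with 37.1 CPM in mouse 1). Within WB1P-Myc, mouse 5 had the lowest pericyte sum and the highest Dcn, Lum and Ogn, but Prelp was highest in mouse 3 (507 CPM, with 394 CPM in mouse 5). WB1P-Myc mouse 1 had the highest pericyte sum, and its Dcn, Lum, Ogn and Prelp were above those of mouse 4. Without the CD26- sum highest in these markers in each model (mouse 1 in both), 8 genes were called in WB1P, the same 7 and Omd, and the same 8 in WB1P-Myc. The CD26- CAF sums left in that fit still held 1815 to 4854 CPM of these markers. It therefore still compared groups that differ in them. What part pericytes had in the levels was not tested.

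**Figure D3:**
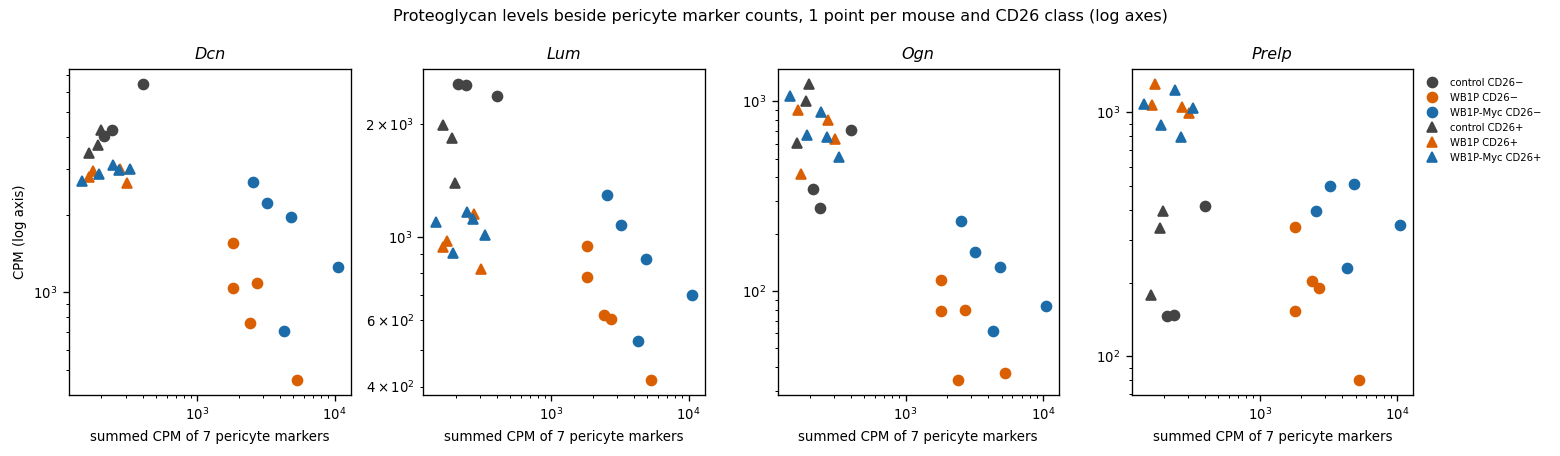
CPM of Dcn, Lum, Ogn and Prelp (log axes) against the summed CPM of 7 pericyte markers, with 1 point per mouse and CD26 class. CD26- CAFs form a group of their own at 1815 CPM or more of pericyte markers, and all other sums lie at 400 CPM or less.

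CD26+ CAFs were compared with CD26+ NFs in the same way. In both models 5 of the 10 genes rose, namely Bgn, Aspn, Fmod, Prelp and Podn. None fell in WB1P in the main edgeR fit, where 6 genes had an unadjusted p under 0.05, and DESeq2 called 6, with Lum lower. Kera fell in WB1P-Myc, where 8 genes had an unadjusted p under 0.05. Over all genes tested, 17.4% were called higher and 16.1% lower in WB1P, and 17.4% higher and 17.3% lower in WB1P-Myc. The median log2 fold change of the 10 genes was 0.56 and 0.46. Tenocyte markers rose in the same sums, 3 of 4 in WB1P and 2 of 4 in WB1P-Myc, from a summed 7.93 to 23.7 CPM in CD26+ NFs to 441 to 1307 CPM in WB1P and 247 to 916 CPM in WB1P-Myc. Most of that sum was Thbs4, while Scx did not exceed 1.38 CPM in any CD26+ sum, and its part in the SLRP levels was not tested. These comparisons, too, share their 3 control mice.

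Bgn was at 1607, 687 and 1241 CPM in CD26+ NFs, at 5077, 7359, 5007 and 5145 CPM in WB1P mice 2 to 5 and at 4564, 5455, 6076, 4890 and 6466 CPM in WB1P-Myc mice 1 to 5. The groups did not overlap, and Bgn was 5.35-fold higher in WB1P (log2 2.42 ± 0.26, adjusted p = 2.2e-06) and 4.89-fold higher in WB1P-Myc (2.29 ± 0.26, adjusted p = 3.4e-06). Prelp was at 179, 393 and 336 CPM in NFs, at 991, 1312, 1077 and 1051 CPM in WB1P and at 1237, 1039, 889, 1086 and 794 CPM in WB1P-Myc CAFs. Every CD26+ CAF sum was thus above every NF sum, by 2.06 ± 0.42 (adjusted p = 0.0011) and 1.85 ± 0.41 (adjusted p = 0.0019) on the log2 scale. Podn, a class V SLRP that slows the growth of smooth muscle cells, was at 82.1, 84.1 and 74.3 CPM in NFs, between 255 and 296 CPM in WB1P and between 196 and 341 CPM in WB1P-Myc CAFs. It was higher without overlap, by 1.91 ± 0.52 (adjusted p = 0.0075) and 1.87 ± 0.50 (adjusted p = 0.0071).

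Fmod rose from 7.72, 1.47 and 8.85 CPM in CD26+ NFs to 115, 138, 209 and 105 CPM in WB1P and 44.9, 111, 180, 96.6 and 270 CPM in WB1P-Myc CAFs. No sum stood apart here as in the CD26- class, and the log2 fold changes were 4.71 ± 1.05 (adjusted p = 0.0020) and 4.60 ± 1.03 (adjusted p = 0.0020). Aspn was at 155, 226 and 217 CPM in NFs and between 360 and 558 CPM in all 9 CD26+ CAF sums, with log2 fold changes of 1.36 ± 0.23 (adjusted p = 0.00023) and 1.14 ± 0.22 (adjusted p = 0.00074). Kera was at 16.2, 2.14 and 15.6 CPM in NFs and between 0.300 and 1.92 CPM in WB1P-Myc CAFs, where it fell (-3.64 ± 0.79, adjusted p = 0.0016). WB1P mice ranged from 0.583 to 8.30 CPM for Kera, which overlapped NFs (-1.40 ± 0.78, adjusted p = 0.17).

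Dcn was at 3472, 4268 and 3745 CPM in CD26+ NFs, at 2659 to 3024 CPM in WB1P and at 2697 to 3120 CPM in WB1P-Myc CAFs. These groups did not overlap, but the difference was small beside the error (log2 -0.24 ± 0.35 and -0.29 ± 0.33, adjusted p = 0.62 and 0.53). Lum was at 1986, 1389 and 1828 CPM in NFs, at 822 to 1149 CPM in WB1P and at 905 to 1162 CPM in WB1P-Myc, and did not pass the threshold either (-0.67 ± 0.27 and -0.62 ± 0.25, adjusted p = 0.057 and 0.060). DESeq2 called Lum lower in both (adjusted p = 0.040 and 0.037). So did edgeR with single libraries (0.0074 and 0.022) and without WB1P mouse 1 (0.040 and 0.043). Lum also passed in both without the 2 sums highest in pericyte markers (0.037 and 0.043). In WB1P it passed without WB1P-Myc mouse 4 (0.047), and in WB1P-Myc without WB1P mouse 2 (0.040). The WB1P-Myc value passed as well with DESeq2 size factors (0.048) and in a fit of the 2 groups alone (0.031). Ogn was at 606, 1242 and 1011 CPM in NFs and between 416 and 1073 CPM in all CD26+ CAFs, which overlapped (adjusted p = 0.67 and 0.73). Omd had log2 fold changes of -0.89 ± 0.54 and -1.22 ± 0.51 (adjusted p = 0.21 and 0.067), and the WB1P-Myc value of -1.22 passed the threshold (adjusted p = 0.0078) when WB1P mouse 1 was left out of the fit that all groups share. It also passed with DESeq2 (adjusted p = 0.049), which called 8 of the 10 genes there with Lum and Omd added, with single libraries (0.0094), with sums of both En1 classes only (0.031) and in a fit of the 2 groups alone (0.0061).

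**Figure D4:**
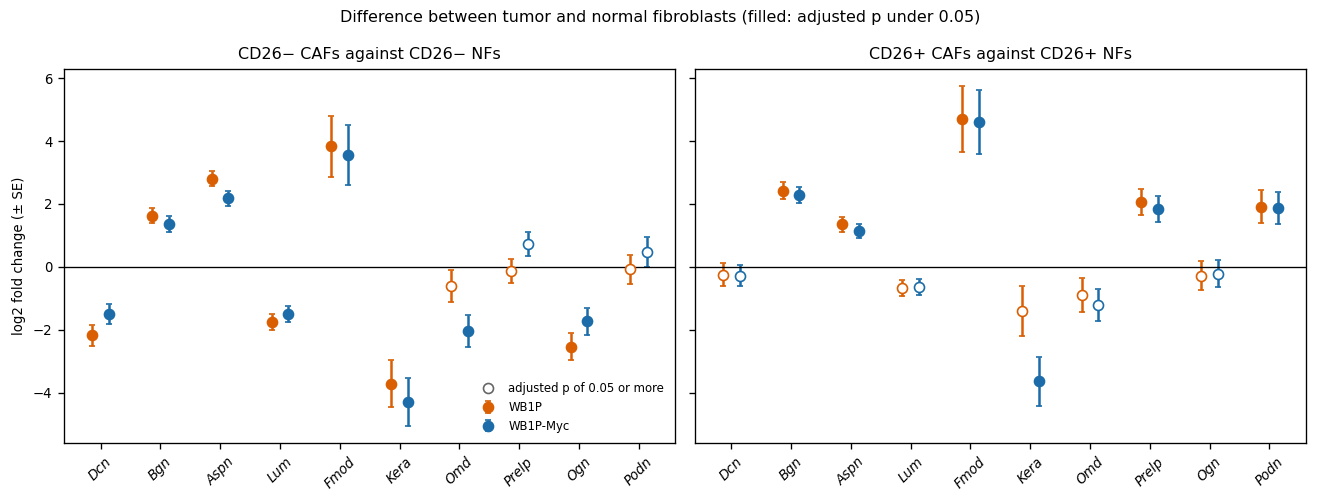
Log2 fold change ± SE of each SLRP gene in CAFs against NFs of the same CD26 class, for WB1P and WB1P-Myc, with filled points at an adjusted p under 0.05. Bgn, Aspn and Fmod were higher in both classes, Dcn, Lum and Ogn have filled points below 0 in the CD26- panel, and Prelp and Podn filled points above 0 in the CD26+ panel; the difference between the panels is tested as an interaction.

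The 2 CD26 classes were then compared directly. In NFs, edgeR called 2 of the 10 genes: Aspn was higher and Bgn lower in CD26+ than in CD26- cells. For 6 genes the unadjusted p was under 0.05, and DESeq2 called 3, with Fmod lower (adjusted p = 0.024). Over all genes 2.67% were higher and 1.49% lower in CD26+ NFs. Aspn was higher in 3 of 3 mice (log2 1.57 ± 0.25, adjusted p = 0.00036) and Bgn lower in 3 of 3 (-1.04 ± 0.26, adjusted p = 0.023). The Bgn call was lost without control mouse 2 (-0.68, adjusted p = 0.33), without control mouse 3 (-1.16, adjusted p = 0.10) and in a fit of the 2 NF groups alone (adjusted p = 0.23). With the mouse as a replicate block, Bgn stayed lower in CD26+ NFs (-1.12 ± 0.27, adjusted p = 0.015). Fmod (-3.01 ± 0.75, adjusted p = 0.021) and Podn (-1.17 ± 0.32, adjusted p = 0.035) were lower in that fit as well, which made 4 genes with Aspn. Fmod stood at 1.47 to 8.85 CPM in CD26+ and 38.8 to 55.5 CPM in CD26- NFs, and Podn at 74.3 to 84.1 and 138 to 320 CPM.

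In CAFs the genes that differed were all higher in CD26+ cells. There were 3 in WB1P (Dcn, Prelp and Ogn) and 5 in WB1P-Myc (Dcn, Aspn, Omd, Prelp and Ogn), and edgeR called none lower (5 and 6 genes had an unadjusted p under 0.05 in either direction, and DESeq2 called 5 and 6, with Fmod lower in both). Of all genes tested 13% were higher and 13% lower in WB1P, and 9.29% higher and 10.7% lower in WB1P-Myc. Ogn had the widest gap, with 634, 416, 907 and 799 CPM in CD26+ against 115, 34.2, 78.6 and 79.8 CPM in CD26- CAFs of WB1P mice 2 to 5. In WB1P-Myc mice 1 to 5 it was at 877, 508, 665, 1073 and 647 CPM in CD26+ against 84.1, 161, 135, 62.0 and 234 CPM in CD26- CAFs. It was higher in all 9 mice with both classes, by 3.41 ± 0.43 (adjusted p = 5.7e-06) and 2.67 ± 0.40 (adjusted p = 4.8e-05) on the log2 scale. Prelp was higher in the same 9 mice, by 2.60 ± 0.36 (adjusted p = 1.6e-05) and 1.54 ± 0.34 (adjusted p = 0.0019).

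Dcn was also higher in CD26+ CAFs of all 9 mice, with mean log2 ratios within a mouse of 1.41 ± 0.49 (SD, n = 4) in WB1P and 0.87 ± 0.73 (n = 5) in WB1P-Myc. The fitted difference was 1.64 ± 0.31 (adjusted p = 0.00047) and 0.91 ± 0.29 (adjusted p = 0.030), and the WB1P-Myc call was lost without mouse 1 (adjusted p = 0.16), mouse 3 (0.073) or mouse 4 (0.12), and without both 8x8 mice (0.091). The WB1P-Myc calls of Aspn (0.54 ± 0.19, adjusted p = 0.044) and Omd (1.40 ± 0.47, adjusted p = 0.039) were lost without any 1 of the 5 mice, and without WB1P mouse 3, 4 or 5 for Aspn and control mouse 3 for Omd. All of these losses were in fits that do not pair the classes of a mouse. With the mouse as a replicate block, the WB1P-Myc calls held for Dcn (1.04 ± 0.25, adjusted p = 0.0061), Aspn (0.54 ± 0.15, adjusted p = 0.013) and Omd (1.41 ± 0.26, adjusted p = 0.0011). In WB1P, Omd was higher in 4 of 4 mice with both classes, and with the mouse as a replicate block its difference was 1.27 (adjusted p = 0.0042) in place of 0.31 (adjusted p = 0.68), since WB1P mouse 1, with 32.8 CPM, has no CD26+ sum to pair with. Fmod was lower in the CD26+ CAFs of 3 of 4 WB1P and 4 of 5 WB1P-Myc mice and did not pass the threshold (adjusted p = 0.073 and 0.089).

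**Figure D5:**
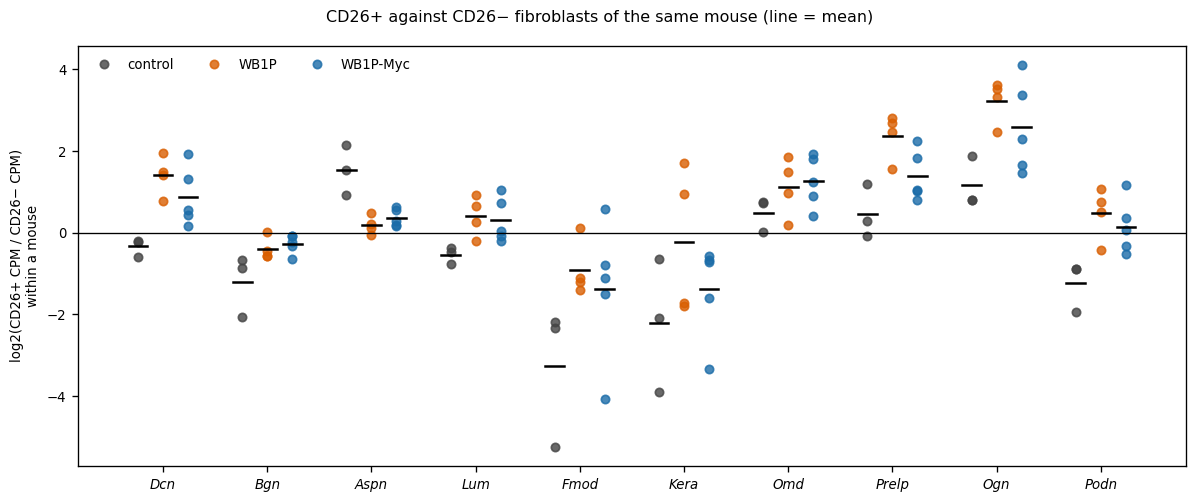
Log2 ratio of CD26+ to CD26- CPM within each mouse, for the 10 SLRP genes in 3 control, 4 WB1P and 5 WB1P-Myc mice, with group means as lines. Ogn and Dcn lie above 0 in all 9 tumor mice, whereas Dcn lies below 0 in all 3 control mice.

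The change of the CD26 difference from NFs to CAFs was tested as an interaction. It was called by edgeR for 1 gene, Aspn, beside 2.11% of all genes, and 7 of the 10 genes had an unadjusted p under 0.05. The log2 difference between CD26+ and CD26- cells was 1.24 ± 0.28 smaller for Aspn in CAFs than in NFs (log2 -1.24, adjusted p = 0.017), and the call was lost without control mouse 2 (adjusted p = 0.089) or control mouse 3 (adjusted p = 0.22). For Dcn, Prelp, Ogn and Podn the interaction was 1.57 ± 0.44, 1.66 ± 0.49, 1.88 ± 0.57 and 1.68 ± 0.60, with adjusted p = 0.064, 0.088, 0.098 and 0.18. For Lum and Bgn the interaction was 0.97 and 0.86 (adjusted p = 0.15 and 0.16). With the mouse as a replicate block, Dcn (1.54, adjusted p = 0.026), Prelp (1.49, adjusted p = 0.033) and Podn (1.62, adjusted p = 0.025) passed beside Aspn (-1.18, adjusted p = 0.0085). Ogn had an adjusted p of 0.061 in that fit. DESeq2 called Aspn, Dcn, Prelp and Ogn.

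WB1P-Myc and WB1P CAFs were compared within each CD26 class. Among CD26- CAFs none of the 10 genes was called by edgeR, although 5 had an unadjusted p under 0.05 and 0.512% of all genes were called. DESeq2 called Aspn, with a log2 fold change of -0.65 (adjusted p = 0.039). Among CD26+ CAFs none of the 10 was called by edgeR or DESeq2, 1 had an unadjusted p under 0.05, and 0% of all genes were called. The CD26 difference of WB1P-Myc against that of WB1P gave no call among the 10 genes with edgeR or DESeq2 either, with 1 gene under an unadjusted p of 0.05 and 0% of all genes called. These are single tests that missed the threshold and do not show that the models are alike.

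En1+ and En1- libraries were compared within a CD26 class over the 3 models. The units were single libraries, and those of 1 mouse counted as separate. No SLRP gene was called in CD26- libraries, where 1 of the 10 had an unadjusted p under 0.05, and edgeR called 0.00642% of all 15584 genes tested. None was called in CD26+ libraries, where none had an unadjusted p under 0.05, and 0.0128% of all genes were called. DESeq2 called none of the 10 in either. The log2 differences lay between -0.39 (Kera) and 0.70 ± 0.46 (Fmod) in CD26- libraries, and between -0.71 (Kera) and 0.14 ± 0.49 (Fmod) in CD26+ libraries. The Fmod value in CD26- libraries includes WB1P mouse 1, which has no En1- library, and with the mouse as a replicate block it was 0.23 ± 0.35, while Kera in CD26+ libraries was at -0.47 ± 0.45. The values for Dcn were -0.11 ± 0.20 and -0.01 ± 0.21.

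Of the 10 genes, 8 lie next to another SLRP gene in the mouse genome (GRCm38, GENCODE M21). Dcn (chromosome 10, 97479609 to 97518143), Lum (97565128 to 97572703) and Kera (97606879 to 97613692) follow each other on the plus strand, with Epyc, a class III SLRP, after them. All 4 fell in CD26- CAFs of both models, Epyc with log2 fold changes of -5.33 (adjusted p = 5.2e-05) in WB1P and -2.92 (adjusted p = 0.0052) in WB1P-Myc. On chromosome 13, Ecm2, Aspn (49544443 to 49567565), Omd (49582462 to 49592822) and Ogn (49608046 to 49624501) lie in a row on the plus strand, inside Cenpp on the other strand. There Aspn rose in CD26- CAFs while Ogn, at a distance of 2 intergenic gaps of 14896 and 15223 bases with Omd between them, fell. Ecm2, which precedes Aspn by 11653 bases, fell by 1.52 in WB1P and by 1.65 in WB1P-Myc on the log2 scale (adjusted p = 7.7e-06 and 4.5e-06). On chromosome 1, Prelp (133910304 to 133921414, minus strand) and Fmod (134037254 to 134048277, plus strand) point away from each other across 115839 bases. In CD26+ CAFs both rose, and in CD26- CAFs Fmod rose while Prelp did not pass the test. Bgn lies alone on the X chromosome (73483602 to 73495933), and Podn (chromosome 4, 108014791 to 108096445) overlaps Scp2 on the same strand, so that reads in the shared stretch may count for either.

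For neighbours on chromosome 13 that were called in opposite directions in CD26- CAFs, Aspn and Ogn, and for the pair on chromosome 1 that rose in CD26+ CAFs, Prelp and Fmod, the 150 bases before the RefSeq start of the gene (GRCm38.p6) are shown 5′ to 3′ on the strand of the gene, with motif matches in capitals. The stretches are chr13:49544293-49544442 (plus strand) for Aspn, chr13:49607865-49608014 (plus) for Ogn, chr1:133921402-133921551 (minus) for Prelp and chr1:134037104-134037253 (plus) for Fmod. RefSeq promoters were found for 8 of the 10 genes.
Aspn: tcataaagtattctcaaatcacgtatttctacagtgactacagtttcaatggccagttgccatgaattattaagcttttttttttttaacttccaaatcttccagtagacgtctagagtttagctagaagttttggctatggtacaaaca
Ogn: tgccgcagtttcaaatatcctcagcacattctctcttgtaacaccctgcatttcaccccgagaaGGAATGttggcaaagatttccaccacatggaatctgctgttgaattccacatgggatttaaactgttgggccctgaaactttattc
Prelp: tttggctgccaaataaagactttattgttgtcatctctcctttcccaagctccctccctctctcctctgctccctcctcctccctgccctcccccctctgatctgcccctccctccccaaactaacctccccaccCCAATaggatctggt
Fmod: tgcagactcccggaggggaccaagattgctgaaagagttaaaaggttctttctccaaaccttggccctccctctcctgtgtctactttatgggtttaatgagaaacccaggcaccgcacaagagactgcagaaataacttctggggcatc
The motifs searched on both strands were the TATA box (TATAAA), the CCAAT box (CCAAT), the GC box (GGGCGG), the AP-1 motif (TGANTCA), the TEAD motif (GGAATG) and an E-box (CACGTG), and no capitals overlap. The Ogn stretch holds GGAATG from 86 to 81 bases before the start, a match found in 7.59% of 32851 mouse promoter stretches of this length. The Prelp stretch holds CCAAT from 15 to 11 bases before the start, found in 24.5%. The Aspn and Fmod stretches hold none of these letters, which says nothing of what binds there. TATAAA was found in 7.57%, GGGCGG in 28.6%, TGANTCA in 4.24% and CACGTG in 4.30% of all stretches. Such a match is a description of the sequence and not a site of binding.

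Of 8 further SLRP genes, 7 were tested, and the same 5 moved in all 4 comparisons of CAFs with NFs. In each of these, 3 were higher and 2 lower, beside 16.1% to 19.1% of all genes called in each direction. The comparisons within a CD26 class share their control mice, and the share of all genes called in all 4 was not counted. Podnl1, the class V relative of Podn, Tsku, tsukushi, and Chad, chondroadherin, rose. Chad had mean levels of 0.012 and 0.013 CPM in the NF groups and at most 2.49 CPM in CAF groups, so no fold is given for it. Podnl1, with means of 0.277 and 0.126 CPM in NFs, had log2 fold changes of 7.81 in WB1P and 6.75 in WB1P-Myc CD26- CAFs (adjusted p = 1.0e-07 and 5.7e-07) and of 5.04 and 5.51 in CD26+ CAFs. It was lower in CD26+ than CD26- CAFs in WB1P (-3.83, adjusted p = 8.6e-06) and WB1P-Myc (-2.30, adjusted p = 0.00043). Epyc and Ecm2 fell in all 4. Tsku was higher in CD26+ cells of control, WB1P and WB1P-Myc mice, by 1.20, 1.33 and 1.41 on the log2 scale (adjusted p = 0.024, 0.00040 and 0.00015).

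Enzymes that build the chondroitin and dermatan sulfate chains moved in both directions. Of 22 tested, 8 were higher and 2 lower in WB1P CD26- CAFs and 4 higher and 3 lower in WB1P-Myc, with 5 and 7 higher and 2 and 1 lower in CD26+ CAFs. Of all genes, between 16.1% and 19.1% were called in each direction in these comparisons, so most of these counts lie near the background and are given as a description. Chst7, a chondroitin 6-O-sulfotransferase, rose in CD26- CAFs (log2 2.55 and 3.09, adjusted p = 0.0014 and 0.00034), and Ust, the uronyl 2-O-sulfotransferase, fell (-0.96 and -1.04, adjusted p = 0.0043 and 0.0023). Chst3, another 6-O-sulfotransferase, fell in CD26+ CAFs (-3.35 and -2.30, adjusted p = 0.0036 and 0.013), and Csgalnact1, which starts the chain, rose there (log2 2.10 and 1.99, adjusted p = 0.00013 and 0.00016). Of 9 keratan sulfate genes, 2 were higher and 0 lower in WB1P and 0 were called in WB1P-Myc CD26- CAFs.

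Genes that modify the core proteins or share the fibril were also counted. Between 16.1% and 19.1% of all genes were called in each direction in the comparisons of CAFs with NFs, so these small counts are given as a description. Tpst1, one of the tyrosylprotein sulfotransferases that sulfate lumican and fibromodulin, fell in CD26- CAFs by 1.67 in WB1P and by 1.35 in WB1P-Myc on the log2 scale (adjusted p = 4.1e-07 and 8.1e-06). Bmp1, a protease that cleaves the propeptides of several SLRPs, rose there (1.51 and 1.17, adjusted p = 9.2e-07 and 2.4e-05). All 4 genes of this group passed the test in CD26- CAFs of both models, 3 higher and 1 lower. Among 10 collagen genes of fibrils and their surface, 5 were higher and 0 lower in WB1P and 1 was higher and 0 lower in WB1P-Myc CD26- CAFs, with 4 higher and 0 lower in CD26+ CAFs of each model. Col12a1, a fibril-associated collagen, had log2 fold changes of 4.95 and 3.89 in CD26- CAFs (adjusted p = 6.0e-06 and 6.0e-05). Col14a1, another fibril-associated collagen that binds decorin, was higher in CD26+ than CD26- CAFs, by 2.19 in WB1P and 2.10 in WB1P-Myc (adjusted p = 2.3e-05 and 2.5e-05).

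The genes outside the family whose log2 CPM followed each SLRP most closely over the 25 sums were named by Pearson's r, which is a description over sums that share mice and groups. Lum was followed most closely by Tpst1 (r = 0.968) and Eda (0.941), Dcn by Celf2 (0.953) and Ramp2 (0.952), and Ogn by Add3 (0.972) and Slc4a4 (0.964). Bgn was nearest to Sorcs2 (0.960) and Rnf150 (0.941), Aspn to Il13ra1 (0.947) and Plekhb2 (0.932), and Prelp to Syk (0.940) and C4b (0.940). The values were lower for Fmod, with Galns (0.920), and for Podn, with Fxyd6 (0.853) and Sfrp1 (0.853). They were lowest for the 2 scarcest genes, Omd with Ddhd1 (0.813) and Sec16b (0.789), and Kera with Spop (0.800) and Pja1 (0.793).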

How the data were processed

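The authors sorted EpCAM-/CD49f-/CD31-/CD45- cells by GFP (En1 lineage) and CD26 and sequenced stranded poly(A) RNA. The deposited table holds raw read counts per gene, and the submitters' processing notes name HISAT2 2.2.1 and GRCm38. The counter and annotation are not given in the sources used here. Its 55487 lines include 1 that names no gene, with 0 counts. Counts of the 44 libraries (5790599 to 15240328 each, which limits the precision of low genes such as Kera and Omd) were summed per mouse and CD26 class into 25 sums. edgeR 4.0.16 (TMM scaling, filterByExpr, quasi-likelihood test, Benjamini-Hochberg adjustment over all genes, threshold 0.05) was fitted to 6 groups in R 4.3.3, and En1 was tested on single libraries in 12 groups. The scripts were tested on simulated data. Among 63 pairs of libraries compared, none was a copy (chi-square per degree of freedom 14.8 or more).

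CD26 classes of 1 mouse come from the same animal. Their deviations from the group means correlated by 0.237 to 0.668 in 12 mice, over 0.1 in 12 of 12. Fits with the mouse as a replicate block are thus given where they change a call. They are also given for calls between CD26 classes that were lost without 1 mouse. Alternatives were DESeq2 1.42.0, its size factors in edgeR, no filter on low counts, single libraries, only the groups compared, only sums of both En1 classes, a limit on the log2 fold change of 2, no 8x8 mice and each mouse left out. Leaving out the 2 sums highest in pericyte markers was chosen after seeing the data. The members and the lists were chosen with earlier results of these data known. Genes named were the 10 members, Dpp4 and En1, genes of the lists with the largest called changes (at most 2 per direction), chromosomal neighbours and the 2 genes most like each member (mean of 10 CPM or more), of which 1 is not reported here. Epyc, Ecm2, Tsku, Chad, Tpst1 and Bmp1 were named also where outside these limits, after their values were seen. The motifs were chosen after the sequences were seen. Positions are from GENCODE M21, and promoters from RefSeq GRCm38.p6. Python 3.11.15, pandas 2.3.3 and matplotlib 3.10.9 were used.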

Additional observations from a re-analysis of the deposited data

Results flagged for a closer look

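Of 40 groups of 4 or 5 sums, 7 held a sum far from the others by Dixon's criterion, which chance alone exceeds in about 1 of 20 groups. Fmod was at 1913 CPM in CD26- CAFs of WB1P mouse 1, with 192 to 317 CPM in the others, and Omd was at 32.8 CPM in the same sum, with 3.30 to 7.95 CPM in the others. Fmod was at 1610 CPM in CD26- CAFs of WB1P-Myc mouse 4, with 77.6 to 387 CPM in the others. Bgn was lowest, at 4785 CPM, in CD26- CAFs of WB1P-Myc mouse 1, with 6788 to 7575 CPM in the others. That sum is 1 En1- library and had the highest pericyte sum (10557 CPM). In CD26+ CAFs, WB1P mouse 3 was highest for Bgn (7359 CPM, others 5007 to 5145), Aspn (558 CPM, others 404 to 426) and Podn (296 CPM, others 255 to 259). Its sum is 1 En1+ library of 5790599 counts, the fewest of all, whereas the other WB1P CD26+ sums hold both En1 classes. Whether mouse, En1 class or depth set these sums apart was not tested.

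The CD26 difference of Aspn was smaller in CAFs than in NFs, by an interaction of -1.24 on the log2 scale (edgeR, adjusted p = 0.017).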

How the results depend on the processing

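Of 2700 log2 fold changes of the 10 genes under other settings, the limit on fold aside, 2540 kept their direction and side of the threshold, 31 lost and 65 gained a call, 64 uncalled ones moved, and no called value changed sign. For CAFs against NFs, 803 of 840 held and 1 call was lost (Ogn). Requiring also a log2 fold change over 2 left 4 of 8 calls in WB1P-Myc CD26- CAFs, 3 of 5 in WB1P and 3 of 6 in WB1P-Myc CD26+ CAFs, 0 of 2 between CD26 classes of NFs, 1 of 5 between those of WB1P-Myc CAFs and 0 of 1 for the interaction. Between CD26 classes of NFs, the calls numbered 4 with the replicate block, 5 with single libraries, 1 in a fit of the 2 groups alone and 1 to 2 with 1 mouse left out. In WB1P, DESeq2 called 5. In WB1P-Myc, 2 were called without the 8x8 mice, 3 with only sums of both En1 classes, and 2 to 6 with 1 mouse left out. Between models, DESeq2 and single libraries each called 1 gene in CD26- CAFs. The interaction gave 4 calls with DESeq2, 4 with the replicate block, 7 with single libraries and 0 to 3 with 1 mouse left out (0 without control mouse 2 or 3). The block, which joins the CD26 classes of 1 mouse, otherwise added only Omd in WB1P and lost no call. Causes of these changes were not tested.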
